A study of Mus with 438 samples.

Results

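The cells described here were 98 single cones of 2-month-old mice labelled KO, with the knockout at Thrb, the gene of thyroid hormone receptor beta. They were 50 cones from the superior (dorsal) and 48 from the inferior (ventral) zone of the retina, chosen by their labels alone, among 430 single-cell RNA libraries in all. The strain was C57BL/6 and the genotype Trb2Cre-KO:Ai6, in which Cre comes from the locus of the receptor's beta2 form and switches on the fluorescent Ai6 reporter. The 2-month controls were 53 superior and 50 inferior cones of genotype Trb2Cre-het:Ai6, so that they too carried 1 Cre allele and the reporter. Control collections of the same genotype and strain came from postnatal days 2, 8, 21 and 60 (P2, P8, P21 and P60), with 21 to 30 cones per zone. Retina pieces were dissociated with papain, and fluorescent cells were picked one at a time. The labels name no animals, so the cells of a group may share an animal, and each group of cells counts as 1 sample.

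Mouse cones carry a short-wave opsin, encoded by Opn1sw, and a medium-wave opsin, encoded by Opn1mw, in proportions that change across the retina. Inferior cones are known for high short-wave opsin and superior cones for high medium-wave opsin. The beta2 form of the receptor, a nuclear receptor that binds DNA and responds to thyroid hormone, is needed for medium-wave opsin and restrains short-wave opsin. The upper and lower retina are set apart early in development by other factors, among them the ventral homeodomain protein Vax2 and the dorsal nuclear receptor Nr2f2. The comparison asks which differences between the zones are found in cones labelled KO.

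Values are CPM, reads of a gene scaled to the depth of the whole library, and a cell is counted for a gene where it is over 1 CPM. The knockout cells had a median of 1.21e+07 reads (superior) and 1.09e+07 reads (inferior), with 5072 and 5259.5 genes above 0. Thinning each 2-month cell to 3.97e+06 reads left out 0 cells and moved no share of knockout cells for a named gene by more than 6.25 percentage points. The cone genes Arr3 (cone arrestin), Gnat2 (cone transducin), Opn1sw and Pde6h (a subunit of the cone phosphodiesterase) were over 1 CPM in all 98 cells. The rod factor Nr2e3 averaged 0.5 CPM in the superior cells and 0.0392 CPM in the inferior ones.

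1 superior knockout library, number 35, stood apart. It had 9.69 CPM of Gnat2, 3.47 CPM of Arr3 and 225 CPM of Opn1sw, while the lowest values in the other 49 cells were 5026, 397 and 42658 CPM. It had 1119 CPM of Tfap2b and 590 CPM of Pax6, transcription factors known from amacrine cells, and no more than 0.591 CPM of Tfap2b was seen in any other superior cell. Its Pearson r with the median of its group across genes was 0.303, against 0.446 for the next lowest cell. It was kept, and counts of genes without it are given beside the patterns and in the closing section.

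The targeted gene was lower in both knockout groups than in the controls. Thrb reads were over 1 CPM in 19 of 50 superior knockout cells (mean 43.2 CPM, highest 454) and in 18 of 48 inferior ones (mean 33.9 CPM, highest 452). In controls they were over 1 CPM in 46 of 53 superior cells (mean 213 CPM) and 33 of 50 inferior cells (mean 170 CPM). Whether the reads that remain come from outside the deleted part is not given in the sources used here. Between the zones of the knockout Thrb had a log2 ratio of 0.34 (superior to inferior, each mean CPM plus 1).

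Short-wave opsin was high in both zones of the knockout, with closely matching medians. Opn1sw (chr6:29376671-29380513, GRCm38) had a median of 70182 CPM in superior cells (225 to 113656, and 42658 at the lowest without library 35) and 70730 CPM in inferior cells (34474 to 119963). The groups overlapped over nearly their whole range. The log2 ratio of the means was −0.04, whereas the control collections had −0.37, −1.62, −3.65, −3.02 and −2.09 at P2, P8, P21, P60 and 2 months. Superior control cones at 2 months had a median of 9991 CPM. In a limma model of all 12 cone groups, described below, the zone difference was −0.04 in the knockout and −2.15 in the controls. The knockout value minus the control value was 2.11 (SE 0.95) on the log2 scale. The loss of the zone difference did not pass the test. The SE rests on the spread among control collections from P2 to 2 months, so change with age was counted in it. The test could not set the knockout against the 2-month controls alone.

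Medium-wave opsin was close to absent from both zones. Opn1mw was over 1 CPM in 10 of 50 superior knockout cells (mean 6.63 CPM, highest 194) and 2 of 48 inferior ones (mean 1.47 CPM, highest 65.7). In the controls it was over 1 CPM in 53 of 53 superior and 48 of 50 inferior cells, with medians of 8277 and 1992 CPM. Over 10 CPM there were 4 superior and 1 inferior knockout cells. Superior knockout libraries 17 to 22, numbered in a row, had between 1.94 and 2.59 CPM of Opn1mw, and the source of these low values was not tested. Mean Arr3 was 3559 CPM superiorly and 1946 CPM inferiorly in the knockout, a log2 ratio of 0.87, and Gnat2 was 9747 and 8602 CPM. Arr3 and Gnat2 were chosen for mention after their values were seen.

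**Figure D1:**
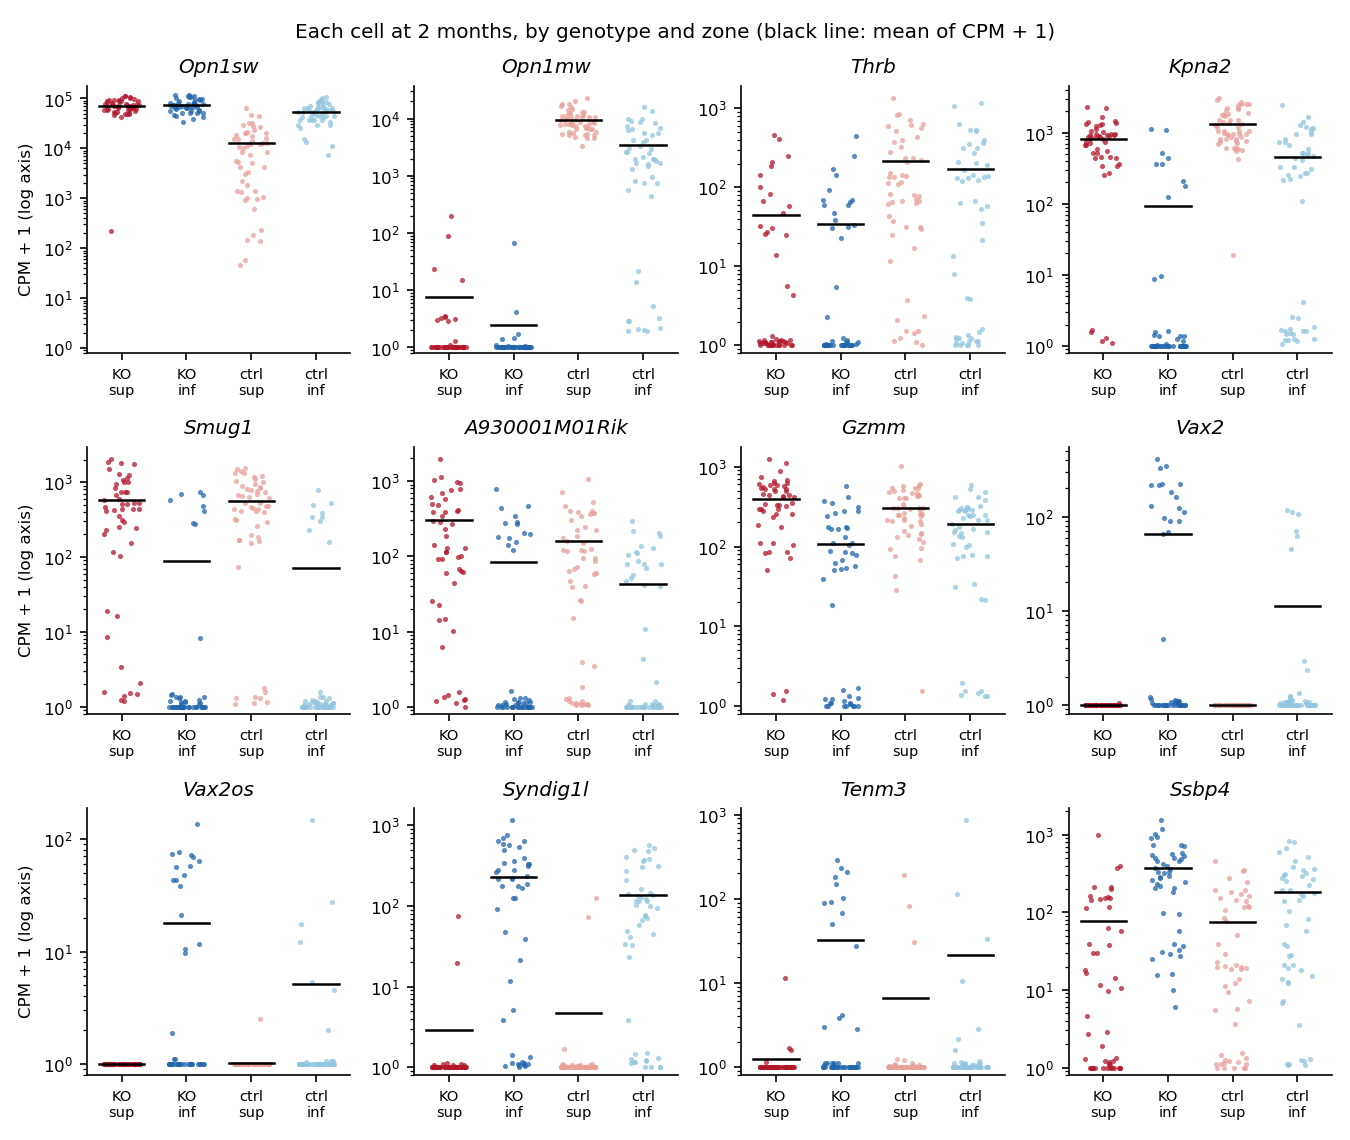
Levels of 12 genes in each 2-month cone, on a log axis of CPM + 1, for knockout and control cells by zone. Each point is a cell and the black line is the mean. Opn1sw lies at the same height in both knockout zones, Kpna2 and Smug1 are high in superior cells, and Vax2 and Syndig1l are found in inferior cells.

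Vax2 and its neighbour Vax2os, ventral retina genes, were over 1 CPM in inferior knockout cells alone. Vax2 (chr6:83711239-83738313) was over 1 CPM in 18 of 48 inferior cells, with a mean of 63.9 CPM and a highest value of 406, and in 0 of 50 superior cells, which allows a share of up to 6% (3 of 50 cells). Summed over cells there was 1 read in the superior group and 30959 in the inferior group, a depth-scaled ratio of 32078 (counting interval 5757 to 1.27e+06). Its opposite-strand transcript Vax2os (chr6:83692804-83712201) had 0 reads in superior cells and a mean of 17 CPM in inferior cells, 16 of which were over 1 CPM. By summed reads that is at least 2960-fold higher in the inferior group, against a floor of 3 reads over the superior group. The bound covers the counting of reads and not the spread between cells. The genes overlap and use of strand in counting is not given, so their reads cannot be fully told apart. In 2-month controls, Vax2 was over 1 CPM in 8 of 50 inferior and 0 of 53 superior cells. Vax2 was lower in superior cells in each of the 5 control collections, with log2 ratios from −7.37 to −3.5, against −6.02 (SE 1.5, limma adjusted p = 1) in the knockout. Ephb2, an Eph receptor gene and the third measured gene of the ventral list, did not meet the size rule defined below, with 4 inferior and 2 superior knockout cells over 1 CPM (means 4.25 and 3 CPM).

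Dorsal retina genes were found in few cells, mostly superior. Nr2f2 was over 1 CPM in 7 of 50 superior knockout cells (mean 19.4 CPM, highest 321) and 0 of 48 inferior ones, with 7 reads in the whole inferior group. The ratio of summed reads was 1090 (counting interval 529 to 2712). In 2-month controls it was over 1 CPM in 15 of 53 superior and 0 of 50 inferior cells. Efnb1, which encodes ephrin B1, was over 1 CPM in 5 superior knockout cells and had 0 reads in inferior ones. By summed reads that is at least 2471-fold higher, a bound that covers the counting of reads and not the spread between cells. Tbc1d2, which encodes a GTPase-activating protein for Rab proteins, was over 1 CPM in 5 superior and 0 inferior knockout cells. Aldh1a1, a retinaldehyde dehydrogenase of the dorsal retina, was over 1 CPM in 1 cell of each zone. Efnb1 and Aldh1a1 were chosen for mention after their values were seen.

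Across all genes a size rule was used, since 1 group per zone allows no test within the knockout. A gene met it where the zones differed at least 2-fold both in the mean and in the mean of log2(CPM + 1), with at least 10 CPM and at least 25% of cells over 1 CPM in the higher group. In the knockout, 166 of 10390 genes were higher in superior cells (1.6%) and 243 in inferior cells (2.34%). In the 2-month controls the numbers were 488 (4.7%) and 50 (0.481%). The other 4 control collections (P2 to P60) had 335 to 735 superior and 328 to 438 inferior genes, so the 2-month controls had the fewest inferior genes of the 5. The median log2 ratio over all genes in the knockout was 0.0049. At 4-fold in both averages, 5 genes were higher in superior cells, namely Kpna2, Smug1, BC005561, Fabp7 and Kcnma1. 11 were higher in inferior cells, namely Syndig1l, Vax2, Rbpms2, Tmem86a, C630043F03Rik, Bub1b, BB114814, Ssbp4, Lactbl1, A930009A15Rik and Slc25a10. Bub1b, Lactbl1, A930009A15Rik and Slc25a10 fall outside the rule for named genes and were chosen after their values were seen.

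**Figure D2:**
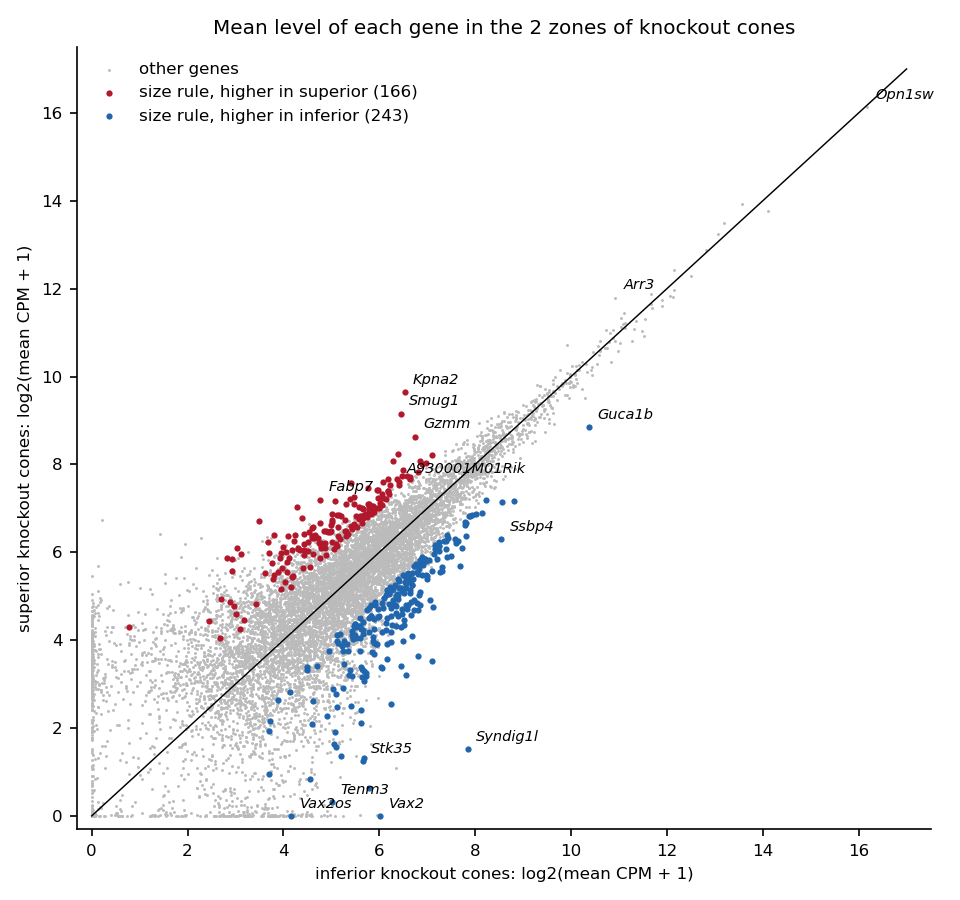
Mean level of each of 10390 genes in inferior (horizontal) and superior (vertical) knockout cones, as log2(mean CPM + 1), with the line of equality. The 166 genes of the size rule higher in superior cells are red and the 243 higher in inferior cells are blue, and Opn1sw lies on the line at the upper right.

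Kpna2 was among the genes with the largest zone difference in the superior direction. It encodes an importin alpha, an adaptor that carries proteins into the nucleus, and lies at chr11:106988629-106999525. Superior cells had a median of 835 CPM (highest 2272), and the inferior median was 0 CPM (highest 1106). It was over 1 CPM in 45 of 50 superior cells (90%, exact interval 78.2% to 96.7%) and 11 of 48 inferior cells (22.9%, 12% to 37.3%). Inferior cells that had it were lower too, with a median of 355 CPM in those 11 cells against 862 CPM in the 45. Levels in these inferior cells overlapped those of superior cells. In the 2-month controls the superior mean was 1323 CPM and the inferior mean 453 CPM, and 35 of 50 inferior cells were over 1 CPM. The log2 ratio was 3.12 (SE 0.70, limma adjusted p = 1) in the knockout, and −0.51, 0.68, 1.5, 1.98 and 1.54 in the controls from P2 to 2 months. RefSeq lists a pseudogene of Kpna2, and how shared reads were counted is not given. Of 18 measured nuclear import genes, Kpna2 alone met the size rule, and the list's median log2 ratio was −0.16, against 0.0032 over the 10192 genes tested.

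Smug1, which encodes a uracil-DNA glycosylase of base excision repair, was higher in superior cells in the knockout and in the controls. It lies at chr15:103153290-103168939. In the knockout it was over 1 CPM in 44 of 50 superior cells (mean 569 CPM) and 9 of 48 inferior cells (mean 86.4 CPM). In the 2-month controls it was over 1 CPM in 45 of 53 superior cells (mean 563 CPM) and 9 of 50 inferior cells (mean 71.2 CPM). The transcript A930001M01Rik averaged 301 CPM superiorly and 83.4 CPM inferiorly in the knockout, with 42 and 14 cells over 1 CPM. Pja1, an X-linked ubiquitin ligase gene, averaged 267 and 114 CPM, with 24 and 13 cells. Xist, which is expressed from an X chromosome in female cells, was over 1 CPM in 36 of 50 superior and 27 of 48 inferior knockout cells, and its part in the values of X-linked genes was not tested.

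Further genes were higher in superior knockout cells. Gzmm, which encodes the protease granzyme M, was over 1 CPM in 47 superior cells (mean 395 CPM) and 30 inferior cells (mean 106 CPM). Fabp7, a fatty acid binding protein gene, was over 1 CPM in 31 and 14 cells (means 145 and 26.3 CPM). Gm626 was over 1 CPM in 20 and 9 cells (means 104 and 10.3 CPM). Smug1, A930001M01Rik, Gzmm, Fabp7, Gm626 and Pja1 were higher in the superior zone in all 5 control collections as well. In all, 21 of the 166 genes (12.7%) had that property, against 4.88% of all 10390 genes. Gzmm was chosen for mention after its values were seen.

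Syndig1l, related to a synaptic transmembrane protein gene, had the largest ratio of mean CPM plus 1 among size-rule genes higher in inferior cells, while the ratio of summed reads was larger for Vax2. It lies at chr12:84677277-84698947. The median was 175 CPM in inferior knockout cells (highest 1155) and 0 CPM in superior ones (highest 74.1), with 35 of 48 and 2 of 50 cells over 1 CPM. The 2-month controls had 37 of 50 inferior and 2 of 53 superior cells, with means of 137 and 3.76 CPM. The log2 ratio was −6.33 in the knockout (SE 1.90, limma adjusted p = 1) and −0.58, −2.53, −5.66, −7.55 and −4.86 in the controls from P2 to 2 months. Ssbp4, a gene of the single-stranded DNA binding protein family, was over 1 CPM in 48 of 48 inferior cells (median 307 CPM) and 29 of 50 superior cells (median 9.11 CPM).

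Further genes were higher in inferior knockout cells. Tenm3, which encodes a teneurin adhesion protein, was over 1 CPM in 15 inferior cells and 1 superior cell (means 31.1 and 0.239 CPM). Stk35, a kinase gene, was over 1 CPM in 18 and 3 cells (means 49.3 and 1.37 CPM). Epha8, an Eph receptor gene, was over 1 CPM in 14 and 6 cells (means 61.9 and 22.2 CPM), and was the only one of 8 measured Eph receptors and ephrins to meet the size rule. Its level in superior controls at 2 months was 0.0181 CPM. C630043F03Rik was over 1 CPM in 21 inferior and 4 superior knockout cells, and Bub1b, a spindle checkpoint kinase gene, in 19 and 4. Of the 243 genes, 20 (8.23%) were lower in the superior zone in all 5 control collections, against 2.38% of all genes, among them Syndig1l, Vax2, Vax2os, Tenm3, Stk35, Bub1b, Epha8 and Guca1b.

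**Figure D3:**
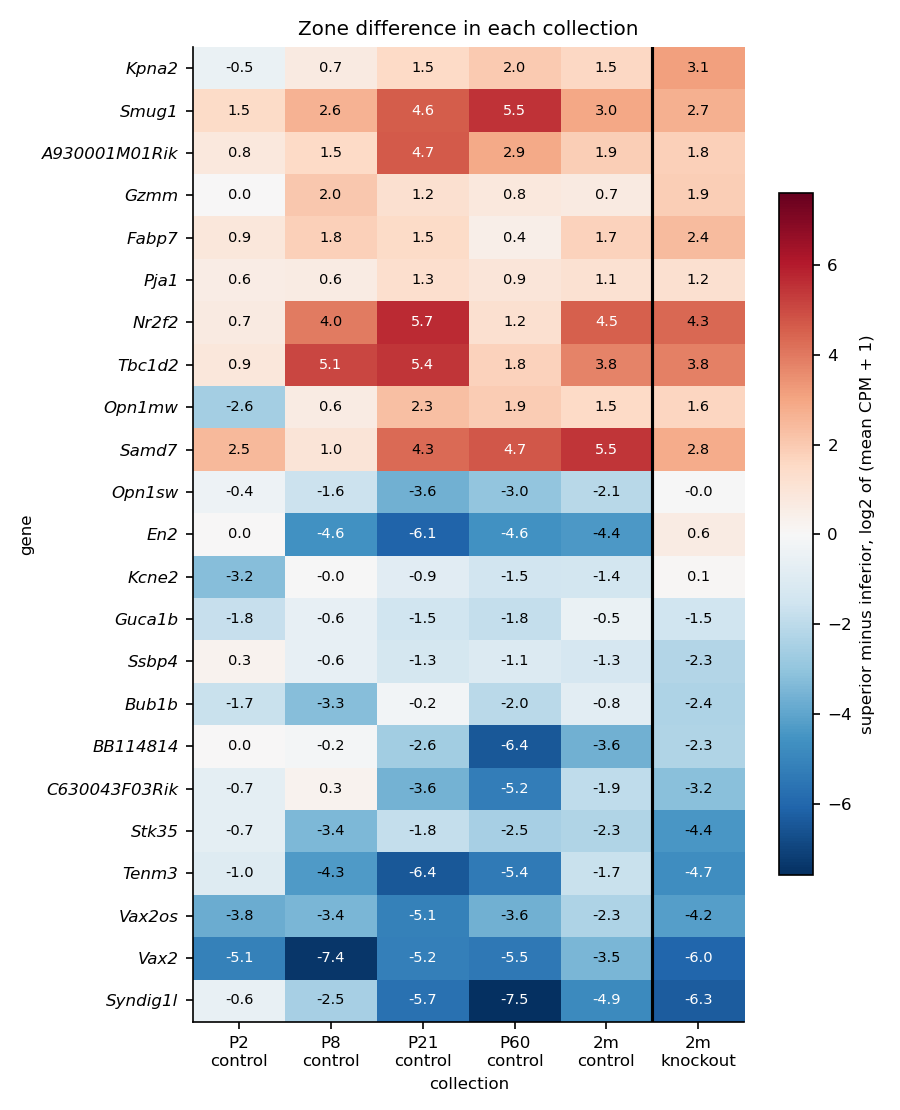
Log2 ratio of superior to inferior means (CPM + 1) for 23 genes in the knockout and the 5 control collections, as a colour scale with the value in each cell. Opn1sw is near 0 in the knockout and −2.09 in the 2-month controls, while Smug1 is positive and Vax2 negative in all 6.

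Superior and inferior genes were also counted together within single cells. Of the superior genes Kpna2, Smug1 and A930001M01Rik, 46 of 50 superior knockout cells had at least 2 over 1 CPM, and 36 had all 3. Of the inferior genes Vax2, Vax2os and Syndig1l, 2 superior cells had any, and both of those cells had all 3 superior genes. Among 48 inferior knockout cells, 40 had at least 1 inferior gene, 25 had none of the superior genes and 8 had at least 2. Those 8 were libraries 16, 17, 18, 22, 24, 26, 35 and 43, and Vax2 was at most 0.0993 CPM in libraries 06 to 24. What the numbering follows is not given, and its part in these counts was not tested. Both kinds were found in 19 inferior cells, and neither kind in 4. In the 2-month controls 21 of 50 inferior cells had at least 2 superior genes, and in the P60 controls 4 of 21. These genes were chosen after their values were seen, and the counts are a description. The inferior genes were chosen as rare in superior cells, so the counts cannot show whether the kinds exclude each other within a cell. Of the 18 inferior knockout cells with Vax2, 14 had Syndig1l and 9 had Vax2os.

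**Figure D4:**
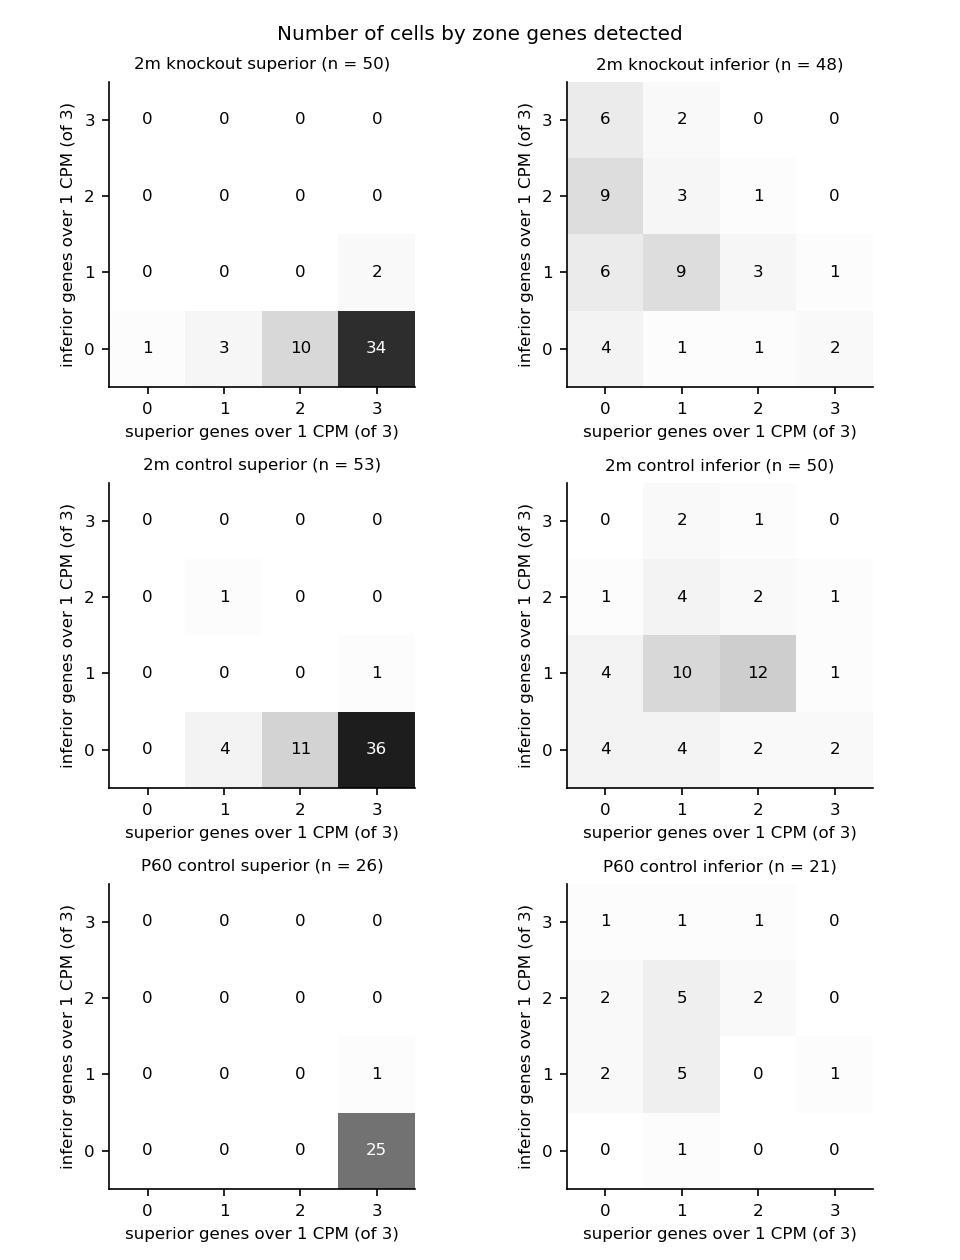
Number of cells by how many of 3 superior genes (Kpna2, Smug1, A930001M01Rik) and of 3 inferior genes (Vax2, Vax2os, Syndig1l) were over 1 CPM, in each zone of the knockout and of the 2-month and P60 controls. Superior knockout cells gather at 3 superior and 0 inferior genes, with 36 of 50 cells having all 3 superior genes.

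Guca1b, Kcnv2 and Cnga3 were the members of the cone phototransduction list that met the size rule. Of 19 measured genes of that list, 0 met the size rule in the superior direction and 3 in the inferior direction. The latter were 15.8%, and 10.5% without library 35, against 2.34% of all genes. The list's median log2 ratio was −0.16. It includes the channel gene Kcnv2, which is not part of the cascade, so these shares are not of the cascade alone. Guca1b, which encodes a guanylate cyclase activating protein, had a superior median of 268 CPM and an inferior median of 1028 CPM, a log2 ratio of −1.52. It was negative in all 5 control collections, at −0.52 in the 2-month controls. Kcnv2, a potassium channel subunit gene, averaged 118 and 281 CPM in the knockout and 226 and 73.6 CPM in the 2-month controls, the opposite order. Cnga3, the cone cyclic nucleotide-gated channel alpha subunit gene, averaged 58.7 and 118 CPM, and its log2 ratio was −0.97 without library 35, which took it out of the rule. Of 14 rod genes, Cngb1, the rod channel's beta subunit gene, met the rule, with 19 inferior and 8 superior cells over 1 CPM.

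Other genes that differ between control zones did not meet the size rule in the knockout. En2, a homeobox gene, was over 1 CPM in 16 of 50 superior and 17 of 48 inferior knockout cells (means 71.3 and 45.2 CPM). In the 2-month controls it was over 1 CPM in 0 of 53 superior and 11 of 50 inferior cells. Samd7, a photoreceptor gene, was over 1 CPM in 1 superior and 0 inferior knockout cells, against 29 of 53 and 3 of 50 in the controls. Kcne2, which encodes a potassium channel accessory subunit, averaged 796 and 749 CPM in the knockout. Desi1, Ptp4a2 and Ccdc136 also did not meet the rule, with log2 ratios of −0.15, 0.50 and −0.25. Stom had a knockout log2 ratio of 1.40, within the controls' range of 0.22 to 2.13, and missed the rule on its share of cells (20%). Of 17 measured zone genes named in earlier work on these data, 4 met it in the superior and 3 in the inferior direction. Those genes were named from these libraries, so this is not independent evidence.

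Each of 3 patterns was counted across the size rule. A difference was said to persist where the 2-month and P60 controls also had at least 2-fold in the same direction. That held for 6 of 166 superior genes (3.61%), namely Kpna2, Smug1, Map7d2, A930001M01Rik, Dirc2 and Nckap1, and for 19 of 243 inferior genes (7.82%), led by Syndig1l, Vax2, Tenm3, Stk35 and Vax2os. The microtubule-associated protein gene Map7d2 was at 681 CPM in library 35, the highest of its group. Without library 35 the persisting genes were 7 and 19. The share of all genes within these control limits is not given here, so the percentages cannot be read as a trait of the knockout's genes. Over 10192 genes, the Pearson r of the knockout's zone ratios was 0.04 with those of the 2-month controls and 0.04 with those of P60. As a measure of how far control collections share such genes, 60 of the 488 superior genes of the 2-month controls (12.3%, and 9.54% of the 629 of P60) met the rule in P60 controls too, and 14 of 50 inferior ones (28% and 4.27% of 328). For the knockout and the 2-month controls the shared genes were 23 superior (13.9% of the knockout's, 4.71% of the controls') and 7 inferior (2.88% and 14%). In the 2-month controls, 112 of the 166 superior genes (67.5%) were also higher superiorly, against 55.9% of all genes, and 120 of the 243 inferior genes (49.4%) higher inferiorly, against 44% of all genes.

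A larger set of genes met the rule in the knockout alone, with log2 ratios under 0.5 in that direction in both control collections. They were 68 superior genes (41%) and 144 inferior genes (59.3%), and without library 35 they were 66 (61 shared) and 148 (133 shared). The share of all genes within each pattern's limits is not given here, so these percentages cannot be read as a trait of the knockout. Most genes of the 2-month controls did not recur in P60 controls either, where 12.3% of superior and 28% of inferior ones met the rule. Kcnma1, which encodes the BK potassium channel, was over 1 CPM in 29 superior and 12 inferior knockout cells (means 189 and 41.8 CPM), against 29 of 53 and 24 of 50 control cells. Zbtb38, a zinc finger gene, averaged 56.2 and 6.62 CPM, and its ratio was negative in all 5 control collections. Vcpip1, a deubiquitinase gene, averaged 10.5 CPM superiorly and 136 CPM inferiorly, with 5 and 13 cells over 1 CPM. Whether these patterns differ beyond the spread between collections was not tested.

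The opposite pattern, a difference of the controls under 0.5 in the knockout, held for 70 of the 488 superior genes of the 2-month controls (14.3%) and 8 of the 50 inferior ones (16%). Without library 35 they were 71 and 8. The 8 were Cabp5, Rnf130, Opn1sw, Cxx1c, 4933416I08Rik, Ppp1r12a, Kcne2 and Rab2b. The median knockout log2 ratio over all genes was 0.0049, and the share of all genes under 0.5 is not given here. These counts therefore cannot be read as a loss of zone differences in the knockout. Cabp5, a calcium binding protein gene, was over 1 CPM in 35 superior and 27 inferior knockout cells, and in 8 of 53 and 20 of 50 control cells. Cabp5 is also a bipolar cell marker, and the part of such cells in the result was not tested.

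The other lists had 0 or 1 member each in the size rule, which over all genes held 1.6% (superior) and 2.34% (inferior). Of 14 thyroid hormone pathway genes, 9 retinoic acid genes, 25 synaptic terminal genes, 23 outer segment and cilium genes and 30 mitochondrial respiration genes, 0 met the size rule in either direction. Of 16 photoreceptor transcription factors, Prdm1 was higher in superior cells (means 102 and 31.1 CPM). Of 19 glycolysis genes, the phosphofructokinase gene Pfkp was higher in superior cells (means 79.3 and 23 CPM), with 604 CPM in library 35. Of 10 stress genes, the immediate early gene Egr1 was higher in inferior cells, with 12 inferior and 2 superior cells over 1 CPM. A single superior cell held 99.3% of that group's Egr1. Of 7 Müller glia markers Apoe, an apolipoprotein gene, was higher in inferior cells (means 102 in superior and 219 CPM in inferior), while the markers' sum had a median of 497 CPM in both zones. Ganglion cell markers had a median sum of 0 CPM in both zones, with highest sums of 612 and 262 CPM. None of the listed markers of horizontal cells, pigment epithelium, microglia, or endothelium and blood were among the 10390 genes. The presence of such cells could therefore not be judged.

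Receptor-bound and receptor-dependent regions were set beside these genes. The deposited lists were 4590 regions bound by the tagged receptor in E18 retina by ChAP-seq (affinity purification of bound chromatin), and regions of P30 cone nuclei by ATAC-seq (open chromatin) named as induced (5049) or suppressed (4072). Within 50 kb of the gene, 58 of 164 superior genes (35.4%) and 103 of 237 inferior genes (43.5%) had a bound region, against 39% of all genes tested. For induced regions the shares were 35.4% and 40.1% against 35.5%, and for suppressed regions 16.5% and 18.1% against 13%. Of 18 persisting inferior genes with a position, 12 had a bound region, 8 an induced one and 8 a suppressed one.

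Bound regions overlapped several of the zone genes. At Opn1sw a bound region (chr6:29380490-29380789) and a suppressed region (chr6:29378831-29379219) overlapped the gene. Vax2 held a bound region at chr6:83719663-83719962 and Syndig1l at chr12:84697324-84697623. The nearest bound region to Kpna2 was 7.48 kb away (chr11:106980848-106981147). Smug1 held an induced region (chr15:103154386-103154644), with a bound region 3.70 kb away. En2 held a suppressed region (chr5:28165337-28167411), and Opn1mw an induced one (chrX:74127180-74127813). The bound regions come from embryonic retina and the open regions from P30 cones, so neither was measured in the cells compared.

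The zone difference of the knockout was tested with limma across 10192 genes, on the assumption that it varies like that of the 5 control collections (4 residual degrees of freedom). The test called 0 genes (0%), and 0 genes (0%) where the knockout's difference was set against that of the controls. edgeR on recovered reads called 4 genes for each, Rd3l, Lrtm1, Nedd9 and Fads2, none over 1 CPM in 25% of cells, and DESeq2 called 440 and 352, of which 76 and 50 were over 1 CPM in 25% of cells and 58 and 34 met the size rule. The 4 were chosen for mention after their values were seen. Intervals on shares and reads cover counting error only, since reads carried no molecular identifiers and cells are not replicates of the condition.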

How the data were processed

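Single cones were measured by SMART-Seq v4 RNA sequencing, 1 library per cell. The tools bcl2fastq 2, STAR 2.7.3a and MACS2 2.2.7.1 are named, without their settings, per the submitters' processing notes. No counting tool, annotation or use of strand was given in the sources used here. The authors deposited CPM scaled to the whole library for 10390 genes, which summed to 80.0% to 93.0% of reads. Whole reads were recovered for 100% of values above 0 within 0.1 reads. The deposited ChAP-seq list has a p-value column of unstated kind, not used here. A pair of P60 libraries with an r of 0.996 was counted once.

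Group means, log2(mean CPM + 1), were tested with limma 3.58.1 in R 4.3.3 (trend, collection as block, mean of at least 5 CPM, Benjamini-Hochberg threshold 0.05), after it was tested on simulated data. edgeR 4.0.16 and DESeq2 1.42.0 on recovered reads, other pseudocounts, filters, scalings and left-out collections were alternatives. Positions were from RefSeq GRCm38.p6, with 10149 genes matched by ID. Genes were named where they were the opsins, Thrb, Vax2, Nr2f2, Kpna2 or earlier zone genes, list members meeting the size rule, the top 15 per direction, or up to 10 per direction of each pattern. Members and lists were chosen with earlier results of these data known. The labels do not say that cells came from separate animals, so p-values measure the spread between these groups of cells.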

Additional observations from a re-analysis of the deposited data

Results flagged for a closer look

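En2 had a log2 ratio of superior to inferior cones of 0.02 in the P2 controls, far from the other 4 control collections, which lay between −6.09 and −4.35. Apoe had 1.96 in the P21 controls, where the others lay between −0.91 and −0.11. Among groups of 5 that are alike, chance alone would set about 1 in 20 apart, but these collections differ in age and read depth. The knockout's log2 ratio had the opposite sign to all 5 control collections for Zbtb38 (2.91), Kcne2 (0.09) and Desi1 (−0.15), and these differences in sign were not tested. For Desi1 the ratio was 0.18, the sign of the controls, with edgeR and with DESeq2.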

How the results depend on the processing

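Leaving out any 1 control collection gave 0 limma calls for the knockout's zone difference and for its difference from the controls, as did other pseudocounts, filters, scalings and leaving out library 35. edgeR called 4 and 4 genes and DESeq2 440 and 352. The count of genes higher in superior cells (166) was 256 with a pseudocount of 0.1, 24 with 10, 331 by means alone, 297 by means of logs alone, 5 at 4-fold and 41 with 50% of cells. The count higher in inferior cells (243) was 46 with a pseudocount of 10, 414 by means alone, 585 by means of logs alone, 11 at 4-fold and 51 with 50% of cells. With the 2-month controls alone, persisting genes were 26 and 30, superior genes of the knockout alone 103, and control differences missing from the knockout 360 and 30. Within 10 and 100 kb, bound regions lay near 17.7% and 43.3% of superior and 24.9% and 57.8% of inferior genes, induced ones near 17.1% and 46.3%, and 20.3% and 54.4%, and suppressed ones near 11% and 24.4% of superior and, within 10 kb, 10.1% of inferior genes. These shares rise with the window by construction. The log2 ratio turned to 0.02 for Opn1sw and 0.18 for Desi1 with edgeR and with DESeq2. For the counts of edgeR and DESeq2 and for these turns the cause was not tested. Leaving out library 35, and using the P21, P60 and 2-month controls alone (0 limma calls), were chosen after seeing the data. Without library 35 the size rule gave 164 and 254 genes, 153 and 231 of them shared. No paired analysis was possible because the numbers in the labels only number the cells of a group.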

Other observations

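Among the genes of the size rule, 4 pairs overlapped in position, among them Vax2 with Vax2os and Zbtb38 with E030011O05Rik. These and the following genes were chosen after their values were seen. The major histocompatibility genes H2-Q6, H2-Q7 and H2-Q4 were neighbours and all higher in inferior knockout cells. How reads of such similar copies were counted is not given, so these genes are uncertain. Cd59a and Cd59b, neighbouring complement regulator genes, were also both higher in inferior cells.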
